A study of Mus musculus with 41 samples.

Results

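The peak lists of H3K18la (lactylation of lysine 18 of histone H3) and H3K27ac (acetylation of lysine 27 of histone H3) of mouse post-ischemia macrophages (PIM) were compared region by region. Peaks of the 2 lists that shared at least 1 bp were merged into a region. Each region was classed as marked by both hPTMs (histone post-translational modifications), by H3K18la only or by H3K27ac only. This gave 36320 regions, against 117116 merged regions over all 24 peak lists of the series. A region was called promoter when it overlapped the 2000 bp on either side of the transcription start site (TSS) of any annotated transcript, and distal otherwise. There were 15657 promoter and 20663 distal regions.

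Lactylation and acetylation are both acyl groups on lysines of the histone tails, and lactylation draws on lactate, the end product of glycolysis. H3K27ac is a classical mark of active promoters and enhancers, H3K4me3 of promoters, and H3K27me3 is deposited by Polycomb at repressed genes. Macrophages that enter injured muscle clear debris and switch from inflammatory to repair programmes, and their enhancers are typically bound by PU.1, C/EBP and AP-1 factors.

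The macrophages were sorted as CD45+CD11b+F4/80+CD64+ cells from the calf muscle of female C57Bl6/J mice, 8 to 12 weeks of age, 2 days after ligation and excision of the femoral artery. All samples share ischemia, so no uninjured state is compared. CUT&Tag, in which transposase tethered to an antibody inserts sequencing adapters beside the marked histone, was run on nuclei. H3K18la was profiled in 2 samples, whose coverage was combined before peaks were called, and H3K27ac in 1 sample. Each mark has 1 peak list and no replicate error, and no difference below was tested. Shares are given with 95% Wilson intervals and medians with order-statistic intervals, which cover counting error only, and neighbouring regions are not independent of each other. The H3K18la list held 32066 peaks over 68.9 Mb (median width 1615 bp), and the H3K27ac list 24643 peaks over 27.4 Mb (median 956 bp). The summed coverage in peaks was 1955 Mb and 835 Mb, and read depth was not analysed here. The mark therefore goes together with the number of samples, the size of the list and the label tag that names it (antibody for H3K18la, histone for H3K27ac), and these cannot be told apart. Coverage is not scaled for depth, so each peak was ranked by total signal (coverage summed over its bases) in its own list only, as a percentile from 0 to 100.

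DNA at the coverage maximum is shown first for examples of each class, because the classes differed in sequence. Each run is 200 bases of the mm10 plus strand, and capitals mark matches on either strand to the motifs AP-1 (TGANTCA), PU.1 (GAGGAAGT) and SP/KLF (GGGCGG). Examples were taken after their values had been seen, from the highest-ranked regions of each class that held no peak of any of the 7 H3K27me3 lists of the series. Regions with both marks were distal at chr7:139971509-139971708 (an intron of Gm16201), distal at chr2:52955182-52955381 (an intron of Fmnl2) and promoter at chr19:6297768-6297967 (an exon of Ehd1).
Gm16201, both: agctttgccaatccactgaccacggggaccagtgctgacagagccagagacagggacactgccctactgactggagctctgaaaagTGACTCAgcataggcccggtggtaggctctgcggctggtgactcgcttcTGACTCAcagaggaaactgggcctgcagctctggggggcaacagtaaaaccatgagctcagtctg
Fmnl2, both: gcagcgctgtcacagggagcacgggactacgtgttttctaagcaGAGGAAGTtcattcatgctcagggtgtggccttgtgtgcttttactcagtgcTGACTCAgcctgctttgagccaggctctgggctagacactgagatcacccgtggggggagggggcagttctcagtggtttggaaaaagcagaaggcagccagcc
Ehd1, both: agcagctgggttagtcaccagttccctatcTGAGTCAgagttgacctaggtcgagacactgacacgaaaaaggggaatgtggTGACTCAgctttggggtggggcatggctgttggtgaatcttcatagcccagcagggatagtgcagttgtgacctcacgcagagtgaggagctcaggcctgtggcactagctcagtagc
The H3K18la-only examples lay at chr6:123227576-123227775, between genes in the promoter region of Clec4n, which encodes the fungal receptor dectin-2, and at chr16:44991039-44991238, intergenic and distal, with Cd200r3 as the nearest protein-coding gene. A distal region of higher rank, at chr17:48216909-48217108 near Trem1, is shown too, since its maximum lies on a repeated sequence with no motif match.
Clec4n, H3K18la only: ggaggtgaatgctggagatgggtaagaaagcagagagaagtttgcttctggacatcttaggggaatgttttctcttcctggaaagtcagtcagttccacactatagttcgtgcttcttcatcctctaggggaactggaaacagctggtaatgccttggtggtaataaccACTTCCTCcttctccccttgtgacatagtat
Cd200r3, H3K18la only: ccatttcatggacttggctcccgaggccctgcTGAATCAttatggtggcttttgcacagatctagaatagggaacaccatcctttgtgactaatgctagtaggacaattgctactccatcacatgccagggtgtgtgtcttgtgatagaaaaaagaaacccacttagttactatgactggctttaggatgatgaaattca
Trem1, H3K18la only: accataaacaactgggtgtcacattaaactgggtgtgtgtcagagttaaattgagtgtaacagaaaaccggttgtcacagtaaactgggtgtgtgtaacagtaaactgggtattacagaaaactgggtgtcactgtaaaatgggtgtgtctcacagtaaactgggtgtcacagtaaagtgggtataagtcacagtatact
The H3K27ac-only examples lay at the promoters of Epc2 (chr2:49452004-49452203, intron) and Jarid2 (chr13:44730500-44730699, intron), which encode chromatin regulators, and at chr19:53906836-53907035 in an intron of Pdcd4, a distal region.
Epc2, H3K27ac only: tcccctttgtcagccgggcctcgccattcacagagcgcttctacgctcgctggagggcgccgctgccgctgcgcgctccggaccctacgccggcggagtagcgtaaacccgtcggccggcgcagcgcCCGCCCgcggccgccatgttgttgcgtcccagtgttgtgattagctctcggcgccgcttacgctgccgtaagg
Jarid2, H3K27ac only: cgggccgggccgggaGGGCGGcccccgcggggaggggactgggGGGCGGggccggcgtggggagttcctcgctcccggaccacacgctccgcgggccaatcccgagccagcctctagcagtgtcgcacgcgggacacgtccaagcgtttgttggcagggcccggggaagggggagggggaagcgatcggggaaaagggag
Pdcd4, H3K27ac only: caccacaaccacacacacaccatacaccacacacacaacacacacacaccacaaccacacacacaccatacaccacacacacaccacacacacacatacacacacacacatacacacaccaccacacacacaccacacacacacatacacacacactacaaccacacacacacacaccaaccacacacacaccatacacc
An H3K18la peak (percentile 80.04) lay beside the Jarid2 region without touching it and within 2000 bp of other TSSs of the gene, so the region and not the gene is H3K27ac only. The examples were picked and do not stand for their class. The Pdcd4 sequence is a CA repeat, and the shares of each feature over all regions follow below.

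In the deposited lists shared marking was the largest class at promoters, and H3K18la alone the largest class at distal sites. At promoters 55.2% of the regions (54.4 to 56.0, 8642 of 15657) carried both marks, 20.4% (19.8 to 21.0, 3190) H3K18la only and 24.4% (23.8 to 25.1, 3825) H3K27ac only. At distal sites 34.5% (33.9 to 35.2, 7138 of 20663) carried both, 59.3% (58.7 to 60.0, 12258) H3K18la only and 6.13% (5.81 to 6.47, 1267) H3K27ac only. The one-mark classes thus lay in different places. Of all H3K18la-only regions 79.4% were distal, and of all H3K27ac-only regions 75.1% were at promoters. This order depended on the length of the lists. With the H3K18la list reduced by total signal to as many bases as the H3K27ac list, 5941 H3K18la peaks stood against 24643 H3K27ac peaks. So few H3K18la peaks limit how many regions can hold that mark. The class with H3K27ac only then became the largest in both places. It took 79.9% of the promoter regions, with 19.4% for both and 0.775% for H3K18la only, and 63.6% of the distal regions, with 32.3% for both and 4.04% for H3K18la only. With the 5000 peaks of largest total signal in each list, H3K27ac only took 55.0% of the promoter regions and both marks 25.5%, while at distal sites H3K18la only took 72.2% and both 23.7%.

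The split between promoters and distal sites was also seen within each list. Of the H3K18la peaks 39.4% (38.9 to 39.9) overlapped a promoter, and of the H3K27ac peaks 54.7% (54.0 to 55.3). Each list was cut by total signal into 10 bins of equal number. In the lowest bin the shares were close, 33.3% for H3K18la and 33.5% for H3K27ac. They parted towards the top. In the highest bin 46.2% (44.5 to 47.9) of the H3K18la peaks and 81.2% (79.6 to 82.7) of the H3K27ac peaks overlapped a promoter. The strongest H3K27ac peaks were therefore mostly promoter peaks, while most of the strongest H3K18la peaks were distal.

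Regions with both marks were wider than those with 1. The median width was 2307 bp (2275 to 2346) at promoters and 2321 bp (2285 to 2364) at distal sites with both marks. H3K18la-only regions had medians of 1427.5 bp (1406 to 1454) and 1416 bp (1404 to 1428), and H3K27ac-only regions 938 bp (922 to 958) and 799 bp (774 to 822). Merging widens a shared region by construction. Single distal H3K18la peaks had a median of 2290 bp within shared regions and 1416 bp outside them. Single H3K27ac peaks differed less, with 839 and 799 bp at distal sites and 1124 and 938 bp at promoters. Of the distal regions with both marks 12.05% were wider than 5000 bp, against 0.653% of those with H3K18la only and 0 of 1267 with H3K27ac only. This width difference shrank with the H3K18la list. The log2 ratio of the distal medians, both over H3K18la only, was 0.71 in the full lists, 0.23 with 5000 peaks per list and 0.05 (-0.03 to 0.11) at equal bases.

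**Figure D1:**
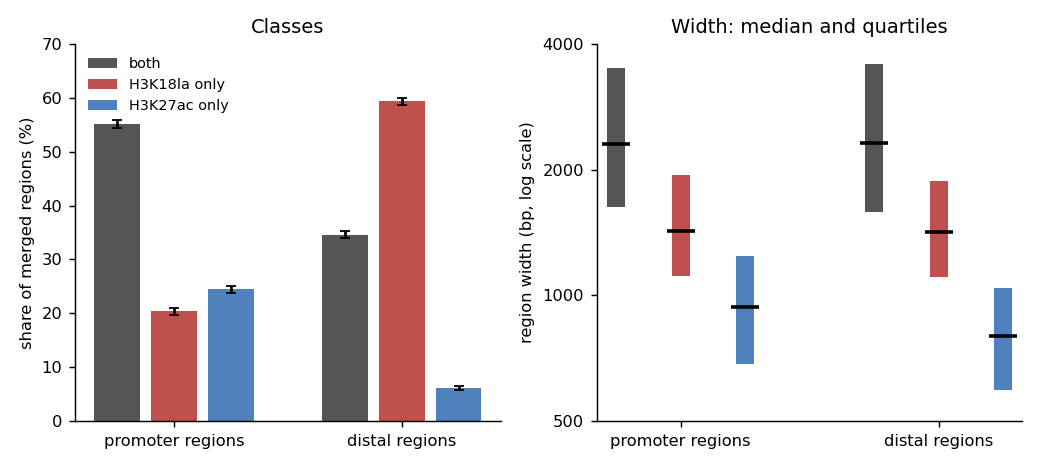
Left, share of merged PIM regions (%) in each class at promoter and distal positions, with 95% Wilson intervals as error bars. Right, region width in bp on a log scale, with the median as a black line and the quartiles as the bar. Both marks together are the largest promoter class (55.2%), H3K18la only the largest distal class (59.3%), and shared regions are the widest.

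Whether a peak of one mark lay in a shared region followed its rank in its own list, most steeply for distal H3K18la. Total signal rises with width, and the median width of distal H3K18la peaks went from 1078.5 bp in the lowest to 4858.5 bp in the highest bin. By width alone, in 4 bins, the shared share of distal H3K18la peaks was 19.1%, 22.5%, 37.3% and 70.2%, and the parts of width and rank were not separated. In the lowest of the 10 bins of the H3K18la list 7.44% of the distal peaks were shared, and in the highest 96.0%. At promoters the share went from 49.9% to 98.6%. Median H3K18la percentiles were 76.7 (75.9 to 77.4) at shared and 32.6 (32.0 to 33.2) at H3K18la-only distal regions, a difference of 44.1 percentile points that came to 28.0 (23.5 to 33.4) with the H3K18la list reduced to equal bases. H3K27ac peaks at distal sites were mostly shared in every bin, from 73.2% in the lowest to 99.5% in the highest. At promoters 64.8% of the H3K27ac peaks were shared in the lowest bin and 94.5% in the highest. H3K27ac peaks without H3K18la were not weak at promoters, with a median percentile of 49.3 (48.1 to 50.6) against 66.3 (65.5 to 67.2) at shared promoters. At distal sites they were, with 17.5 (15.96 to 18.6) against 38.6 (37.6 to 39.3).

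**Figure D2:**
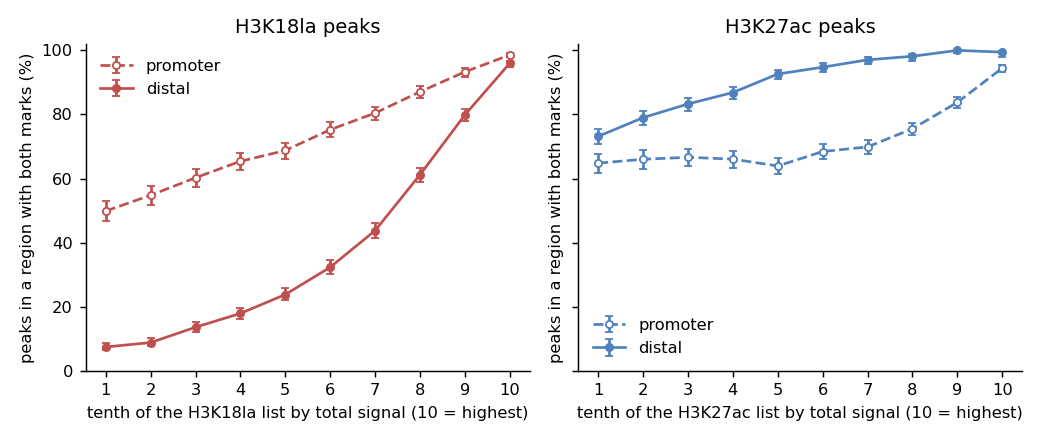
Share of peaks that lie in a region with both marks (%), in 10 bins of the peak's own list ordered by total signal, for H3K18la (left) and H3K27ac (right). Filled points are distal and open points promoter peaks, and bars are 95% Wilson intervals. Distal H3K18la peaks rise from 7.44% to 96.0%, while distal H3K27ac peaks start at 73.2%.

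Within shared regions the peaks of the 2 marks were centred together, and H3K18la spread further. The maxima of the 2 marks were a median of 50 bp apart (48 to 52) at distal sites and 111 bp apart (104 to 116) at promoters. A single H3K18la peak spanned the whole region in 80.8% of the distal and 45.0% of the promoter regions. H3K18la covered more bases than H3K27ac in 94.96% of the shared distal and 75.9% of the shared promoter regions, in lists that cover 68.9 and 27.4 Mb. Across shared regions, which are not independent, Spearman's rho of the 2 percentiles was 0.57 at distal sites and 0.31 at promoters. The promoter maxima differed in place. At shared promoters the H3K27ac maximum lay a median of 105 bp (100 to 111) from the nearest TSS and the H3K18la maximum 355 bp (337 to 374). Without H3K18la the H3K27ac maximum lay 47 bp (44 to 50) from a TSS. Without H3K27ac the H3K18la maximum lay 1095.5 bp (1049 to 1154) away, and 62.6% of these regions overlapped the promoter of a protein-coding gene, against 95.9% of the H3K27ac-only and 87.0% of the shared promoter regions.

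Distal classes also differed in their position. Shared distal regions lay a median of 17028 bp (16438 to 17730) from the nearest protein-coding TSS, H3K18la-only regions 24648 bp (23772 to 25479) and H3K27ac-only regions 12298 bp (11409 to 13566). Introns held the maximum of 55.7% of the shared, 49.2% of the H3K18la-only and 65.6% of the H3K27ac-only distal regions. H3K18la-only regions lay closer to shared regions than H3K27ac-only regions did, with a median gap of 11299 bp (10919 to 11756) against 19181 bp (17048 to 21839).

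The DNA of the classes differed in base composition. In 300-bp windows at the maximum, the median GC content at promoters was 65.3% for H3K27ac only, 59.0% for both at the H3K27ac maximum, 54.3% for both at the H3K18la maximum and 49.0% for H3K18la only. Windows with the composition of a CpG island (at least 50% GC, and CpG at 0.6 or more of the frequency its C and G content predicts) made up 81.6% (80.3 to 82.8) of the H3K27ac-only promoters. The share was 51.7% at shared promoters around the H3K27ac maximum and 30.8% around the H3K18la maximum, and 2.92% (2.39 to 3.56) at H3K18la-only promoters. Distal windows were rarely of this kind, with 2.27% for both, 0.392% for H3K18la only and 6.55% (5.32 to 8.05) for H3K27ac only.

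Motif matches also differed between the classes. The AP-1 motif TGANTCA, bound by Fos and Jun family dimers, was present in 40.5% (39.3 to 41.6) of the shared distal windows, 28.6% (27.8 to 29.4) of the H3K18la-only and 10.8% (9.22 to 12.6) of the H3K27ac-only ones, against 31.6% of all distal windows and 25.8% of the windows of all regions. PU.1 is a master regulator of macrophage identity. Its motif GAGGAAGT was found in 9.83% (9.17 to 10.5) of the shared, 8.47% (7.99 to 8.97) of the H3K18la-only and 3.87% (2.94 to 5.08) of the H3K27ac-only distal windows, against 8.66% of all distal windows and 7.56% of all. H3K18la-only distal windows thus lay below the distal share for AP-1. The C/EBP motif TTGCNNAA was about as frequent in shared (15.1%) as in H3K18la-only distal windows (14.9%), and less so in H3K27ac-only ones (5.92%), against 14.4% of all distal windows. The order was not the same for every motif. The RUNX motif TGTGGT was present in 28.7% (27.7 to 29.8) of the shared, 26.9% (26.1 to 27.7) of the H3K18la-only and 30.9% (28.4 to 33.5) of the H3K27ac-only distal windows, against 27.8% of all. The E-box CAGCTG, bound by the muscle factor MyoD, was present in 22.5%, 17.6% and 12.5%, in the order seen for AP-1, against 18.99% of all. At promoters SP/KLF (GGGCGG), the GC box of many housekeeping promoters, was present in 68.1% (66.6 to 69.5) of the H3K27ac-only and 9.56% (8.59 to 10.6) of the H3K18la-only windows. Shared promoters held it in 31.8% of the windows at the H3K18la maximum and 49.7% at the H3K27ac maximum. The share over all promoters, with shared ones taken at the H3K18la maximum, was 36.1%. The NRF1 motif (GCGC and TGCGC set 1 base apart), bound by a regulator of genes for mitochondrial function, was present in 13.1% (12.1 to 14.2), 6.71% and 0.282% of the H3K27ac-only, shared (at the H3K27ac maximum) and H3K18la-only promoter windows, and in 3.31% of the shared ones at the H3K18la maximum, against 5.08% of all promoters. The ETS motif CCGGAAGT, bound by GABPA, was present in 9.18%, 5.86% and 0.690%, and in 3.81% of the shared ones at the H3K18la maximum, against 4.48% of all promoters. AP-1 was least frequent at H3K27ac-only promoters too, with 3.74% against 25.7% of the H3K18la-only and 21.9% of the shared promoter windows. The share was 18.6% for shared promoters at the H3K27ac maximum and 18.2% over all promoters. All matches were counted on both strands, PU.1 and ETS share the letters GGAAGT, and CG content moved with the CG-rich motifs.

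**Figure D3:**
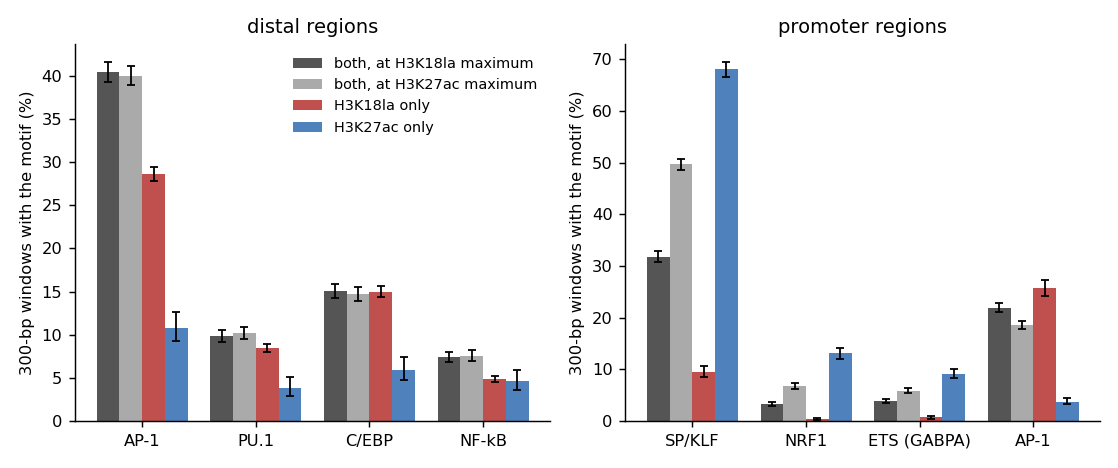
Share of 300-bp windows at the coverage maximum that hold a motif on either strand (%), by class, for distal (left) and promoter regions (right). Shared regions are shown at the maximum of either mark, and bars are 95% Wilson intervals. AP-1 is most frequent at shared distal regions (40.5%), and SP/KLF, NRF1 and ETS at promoters with H3K27ac only (68.1%, 13.1% and 9.18%).

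The small distal H3K27ac-only class stood apart in repeats, which was examined after the Pdcd4 sequence above had been seen. At least 50% of the window was marked as repeat in the genome file in 42.5% (39.8 to 45.3) of these regions, against 7.86% (7.26 to 8.51) of the shared distal regions at the H3K27ac maximum and 9.29% (8.79 to 9.82) of the H3K18la-only ones. A run of 10 or more CA units, on either strand, was present in 18.7% (16.7 to 20.9), 5.17% and 3.66%. A tandem repeat of units of 1 to 6 bases over at least 20 bp was present in 23.8%, 8.38% and 6.84%, and repeats of longer units, such as that near Trem1, were not counted. H3K27ac-only distal regions with such a run lay under an H3K4me3 peak in 4.22% of 237 cases, and those without it in 21.8% of 1030. The part of repeats in the call of these peaks was not tested.

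Other marks of the same macrophages separated the classes. PIM H3K4me3 peaks lay at 92.7% (92.2 to 93.3) of the shared and 91.5% (90.5 to 92.3) of the H3K27ac-only promoters, and at 42.0% (40.3 to 43.8) of the H3K18la-only promoters. At distal sites they lay at 62.3% (61.2 to 63.4) of the shared, 19.1% (18.4 to 19.8) of the H3K18la-only and 18.5% (16.5 to 20.8) of the H3K27ac-only regions. Wider regions have a greater chance of an overlap. Among distal regions of 105 to 1150 bp the shares were 43.6%, 14.8% and 19.5%. Among those of 2334 to 22766 bp they were 73.9% for shared and 31.9% for H3K18la-only regions. PIM H3K27me3 was found at 14.5% (13.3 to 15.7) of the H3K18la-only promoters and at 7.42% and 8.42% of the shared and H3K27ac-only promoters. At distal sites its shares lay between 5.67% and 7.98%.

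Peaks of bone marrow-derived macrophages (BMDM), a culture that the classes did not use, were most frequent at shared regions. BMDM H3K27ac lay at 47.5% (46.3 to 48.7) of the shared distal regions, 9.15% (8.65 to 9.67) of the H3K18la-only and 6.39% (5.17 to 7.88) of the H3K27ac-only ones. BMDM H3K18la lay at 65.8%, 27.7% and 8.52%. Shared regions were wider, which raises the chance of an overlap, so the distal regions were cut by width into 4 bins of equal number. In the narrowest bin (105 to 1150 bp) BMDM H3K27ac lay at 19.3% (16.5 to 22.5) of the shared and 4.94% (4.26 to 5.71) of the H3K18la-only regions. In the widest (2334 to 22766 bp) it lay at 62.4% (60.8 to 64.0) and 22.4% (20.4 to 24.5). The share was higher at shared regions in each of the 4 bins, although widths still differed within the widest one. With the H3K18la list reduced to equal bases, 39.8% of the few remaining distal H3K18la-only regions lay under a BMDM H3K27ac peak. At promoters BMDM H3K27ac was found at 71.9% of the shared, 35.8% of the H3K27ac-only and 15.2% of the H3K18la-only regions. No H3K18la or H3K27ac peak of any other cell type of the series lay at 30.4% (29.6 to 31.2) of the H3K18la-only and 33.5% (30.9 to 36.1) of the H3K27ac-only distal regions, against 7.29% (6.70 to 7.91) of the shared ones. These last shares were not cut by width.

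**Figure D4:**
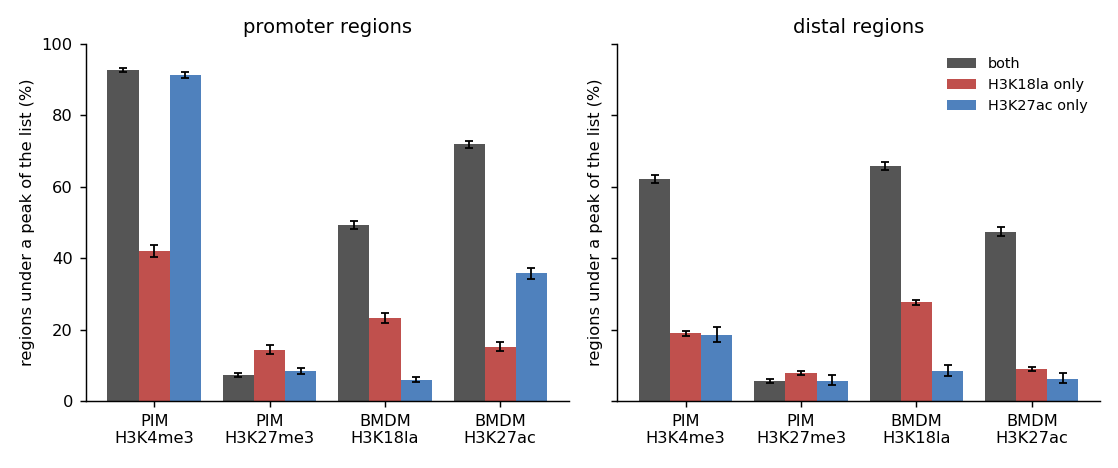
Share of promoter (left) and distal regions (right) of each class that lie under a peak of 4 lists the classes did not use (%): PIM H3K4me3, PIM H3K27me3, BMDM H3K18la and BMDM H3K27ac. Bars are 95% Wilson intervals. H3K4me3 is as frequent at H3K27ac-only (91.5%) as at shared promoters (92.7%), and both BMDM marks are most frequent at shared regions.

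Across 21755 protein-coding genes, 7469 had both marks at the promoter, 764 H3K18la only, 3138 H3K27ac only and 10384 neither. At equal bases, where 5941 H3K18la peaks stood against 24643 of H3K27ac, both fell from 34.3% to 8.69% of the genes. H3K27ac only rose from 14.4% to 40.1%, H3K18la only was 0.345% and neither 50.9%. With 5000 peaks per list both took 5.25%, H3K27ac only 13.8%, H3K18la only 2.44% and neither 78.5%. Counts of the gene lists below in these 2 settings are to be read against these shares. Each gene was given the highest peak within 2000 bp of any of its TSSs, and such a peak can belong to a close neighbour. H3K18la-only genes were the group most often under an H3K27me3 peak. H3K27me3 lay at 42.7% (39.2 to 46.2) of them, at 14.6% of the genes with both marks, at 14.7% of the H3K27ac-only genes and at 37.3% (36.4 to 38.2) of the genes with neither. H3K4me3 lay at 63.7% of the H3K18la-only genes, at 99.0% of those with both marks and at 98.2% of those with H3K27ac only. A shared distal region had 13.1% of them as its nearest gene, against 30.5% of the genes with both marks and 29.1% of those with H3K18la only, and 6.63% of those with neither.

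Gene lists were compared with these shares of all genes, 34.3% with both marks, 3.51% with H3K18la only, 14.4% with H3K27ac only and 47.7% with neither. The sort itself used the products of Ptprc, Itgam, Adgre1 and Fcgr1, and all 4 promoters carried both marks. Of the 20 macrophage identity genes 18 had both marks and 2 had H3K18la only, so all 20 had H3K18la and 18 had H3K27ac, against 37.8% and 48.8% of all genes. Csf1r, the receptor for the growth factor of macrophages, had percentiles of 99.0 for H3K18la and 99.2 for H3K27ac. Spi1, which encodes PU.1, had percentiles of 99.0 and 99.6, and Runx1, a haematopoietic transcription factor, 98.1 and 98.5. Ccr2, the chemokine receptor of recruited monocytes, was unequal, with 97.7 for H3K18la and 15.7 for H3K27ac. The H3K18la-only members were the fractalkine receptor Cx3cr1 (53.7) and Aif1 (50.2), which encodes IBA1.

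Of 20 chemokine and cytokine genes 17 had both marks, 2 H3K18la only (Ccl5 at 86.0 and Il6 at 15.3) and 1, Il1a, neither. Oncostatin M (Osm) had percentiles of 99.4 for H3K18la and 77.3 for H3K27ac, Il1rn, the interleukin-1 receptor antagonist, 98.3 and 27.8, Il10, an anti-inflammatory cytokine, 97.6 and 58.8, and Cxcl2, a neutrophil attractant, 97.4 and 95.1. Their H3K18la peaks were wide, with 12338 bp at Osm and 8246 bp at Il1rn, where the H3K27ac peak measured 373 bp. Of 20 genes of Toll-like receptor and NF-kB signalling 18 had both marks, among them Tlr4, Nlrp3, Tnfaip3 and Tlr2, and 2 H3K18la only. One of these, the endosomal receptor gene Tlr13, had an H3K18la peak of 11052 bp at percentile 97.1 and no H3K27ac peak, and the other, Tlr1, lay at 31.9. Neither list held a gene with H3K27ac only, but this depended on the length of the H3K18la list. At equal bases 10 chemokine and cytokine genes had both marks, 7 H3K27ac only and 2 neither, and 11, 7 and 1 of the Toll-like receptor and NF-kB genes. With 5000 peaks per list 4 genes of the first list had both, 6 H3K18la only, 0 H3K27ac only and 10 neither. In the second list the counts were 7, 4, 7 and 2. Of all genes 5.25%, 2.44%, 13.8% and 78.5% fell in these classes in that setting.

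Of 20 repair macrophage genes 14 had both marks, 2 H3K18la only and 4 neither, and those with both were 9 at equal bases and 5 with 5000 peaks per list. Lgals3, which encodes galectin-3, had percentiles of 99.9 and 99.7 and an H3K18la peak of 20875 bp, and Il4ra, the interleukin-4 receptor, 99.3 and 99.8. Trem2 (96.9 and 96.1) and the mannose receptor Mrc1 (95.9 and 83.1) also had both. Mmp12, which encodes macrophage elastase, had H3K18la only at 51.5, while Retnla, Chil3, Pdgfb and Gas6 had neither mark. Of 20 genes of the lysosome and phagocytosis 18 had both marks, and 14 and 10 in these settings. The cathepsin genes Ctsb and Ctsd had H3K18la percentiles of 99.8 and 99.7, and Psap, which encodes prosaposin, 99.2. The scavenger receptor gene Cd36 was unequal, with 99.5 for H3K18la over 10740 bp and 21.3 for H3K27ac over 422 bp. Atp6v0d2 had H3K18la only (52.6) and Marco had neither mark.

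Of 12 MHC class II and costimulation genes 7 had both marks, 3 H3K18la only, none H3K27ac only, and H2-Aa and H2-Oa had neither. At equal bases 4 had both, 1 H3K18la only and 3 H3K27ac only, so that H3K27ac was then the more frequent mark. With 5000 peaks per list 0 had both, 4 H3K18la only, 1 H3K27ac only and 7 neither, so that H3K18la was the more frequent. In the full lists the H3K18la-only members were the invariant chain gene Cd74 (84.9), H2-Eb1 (69.7) and H2-Ab1 (55.6). Where both were present the median H3K27ac percentile of the list was 24.3, against 72.9 over all genes with an H3K27ac peak. The costimulatory genes Cd80 and Cd86 had H3K18la percentiles of 91.0 and 87.7, Cd40 87.9 and the lysosomal protease Ctss 81.7.

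Of 20 immediate early genes, whose products include AP-1, 18 had both marks and 2, Jund (90.7) and Fosb (50.5), H3K27ac only. Both marks were at 13 of them at equal bases and at 10 with 5000 peaks per list. The median percentiles of the list were 86.8 for H3K18la and 94.7 for H3K27ac, against 59.7 and 72.9 over all genes with a peak of the mark. Klf6, a zinc-finger transcription factor, had percentiles of 99.9 and 99.8 with an H3K18la peak of 19275 bp, Junb 99.2 and 99.9, Jun 98.1 and 99.8 and Atf3 94.9 and 94.8. Interferon response genes were mixed, with 12 of 18 carrying both, 2 H3K18la only (Ifit3 and Oasl2), 3 H3K27ac only (Stat2 and Ifit1 among them) and 1, Ifit2, neither. At equal bases 4 had both and 11 H3K27ac only. The shared members of highest H3K18la rank in the full lists were Irf2, Isg20, Rsad2 and Mx1.

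Of 19 matched genes of glycolysis and lactate handling 15 had both marks and 4 H3K27ac only. Pkm, the pyruvate kinase gene, had percentiles of 97.9 and 84.2, the hexokinase genes Hk3 97.5 and 91.5 and Hk1 95.3 and 98.3, and the phosphofructokinase gene Pfkp 95.5 and 85.9. H3K27ac only was found at the other 2 phosphofructokinase genes Pfkl (82.5) and Pfkm (58.1), at Gpi1 (77.1) and at Bsg (71.1), the chaperone of lactate transporters. Of 17 matched hypoxia genes 10 had both marks, led by the glucose transporter gene Slc2a1 (94.0 and 84.0) and followed by Ndrg1, Mxi1 and Bnip3. P4ha1, Arnt and Pdk1 had H3K27ac only, the oxygen sensor gene Egln3 H3K18la only, and Egln1, Adm and P4ha2 neither. At equal bases H3K27ac only became the largest class of both lists, with 11 of the 19 glycolysis and 9 of the 17 hypoxia genes, and both marks were at 8 and 4. With 5000 peaks per list 6 glycolysis genes had both marks, 1 H3K18la only, 4 H3K27ac only and 8 neither. The hypoxia counts were 3, 0, 6 and 8.

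In the deposited lists H3K27ac only was most frequent at respiratory chain, ribosomal protein and DNA repair and cell cycle genes, an order that list length changed. Of 19 matched respiratory chain genes 12 had H3K27ac only and 7 both, against 14.4% and 34.3% of all genes. The H3K27ac-only members of highest rank were Cox5a (89.8), Sdha (78.2), Cox4i1 (78.1), Uqcrfs1 (76.8), Ndufs3 (66.4) and Sdhc (63.7), and those with both marks included Atp5b, Sdhb and Uqcrc2. Of 20 cytosolic ribosomal protein genes 9 had H3K27ac only, among them Rps2 (94.6), Rpl5 (85.5), Rplp0 (82.6), Rps18 (81.3) and Rpl8 (74.7), and 11 had both, led by Rpl18, Rps14, Rpl7 and Rpl11. Of 20 DNA repair and cell cycle genes 8 had H3K27ac only, with Ccne1 (74.7), Ccna2 (68.1), Mcm3 (47.6) and Ccnb1 (22.4) among them. A further 8 had both, led by Brca1, Pcna, Atm and Mcm2, while Xrcc5 had H3K18la only and Chek1, Top2a and Aurkb neither. All genes of these 3 lists had an H3K4me3 peak. With the 5000 peaks of largest total signal in each list none of them had H3K18la, while 11 ribosomal, 4 respiratory chain and 3 DNA repair and cell cycle genes had H3K27ac only, against 5.25% of all genes with both, 2.44% with H3K18la only and 13.8% with H3K27ac only. The respiratory chain and DNA repair counts were then near the share of all genes. In the same setting H3K27ac only was found at 7 of the 20 Toll-like receptor and NF-kB genes, 6 of the 17 hypoxia and 6 of the 20 immediate early genes. The 20 macrophage identity genes then had both marks at 7, H3K18la only at 4, H3K27ac only at 3 and neither at 6. With the H3K18la list reduced to equal bases, H3K27ac only was found at 19 ribosomal and 18 respiratory chain genes, but also at 6 of the 20 macrophage identity and 7 of the 20 chemokine and cytokine genes, and at 40.1% of all genes.

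**Figure D5:**
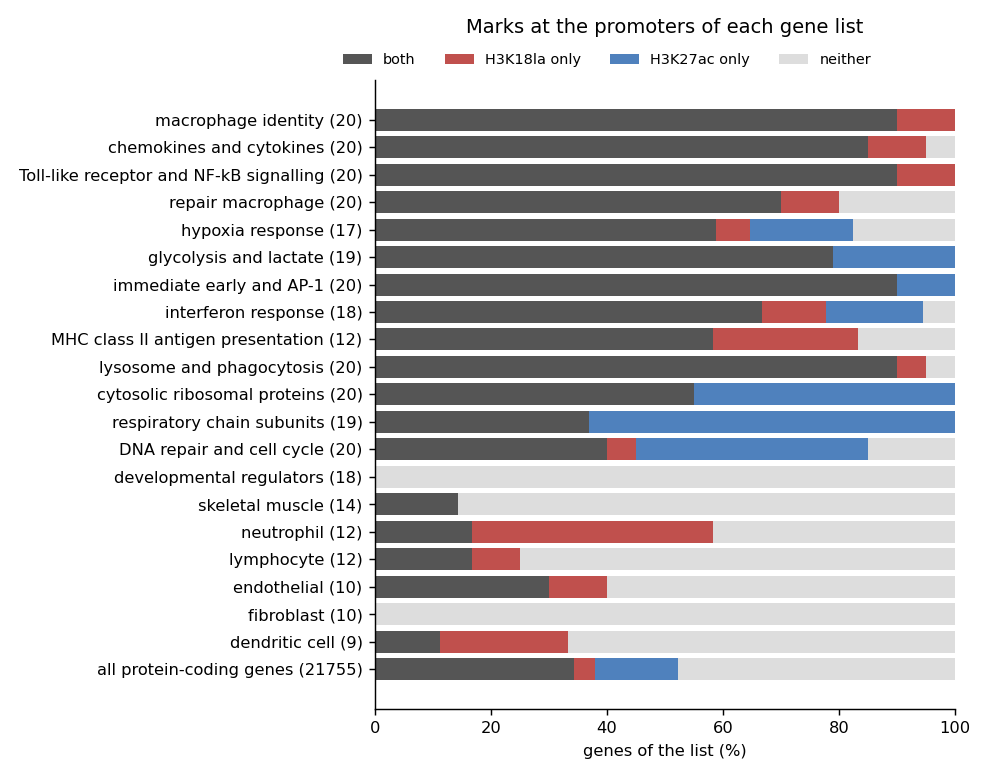
Share of the matched genes of each list (%) whose promoters lie under peaks of both marks, H3K18la only, H3K27ac only or neither in PIM, with the number of genes in brackets and all protein-coding genes as the lowest bar. Shared promoters make up 18 of 20 macrophage identity and 14 of 20 repair macrophage genes, H3K27ac only is most frequent among respiratory chain (12 of 19) and ribosomal protein genes (9 of 20), and fibroblast and developmental lists are at neither.

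Lists of other cell types were set beside the shares of all genes, 47.7% with neither mark, 34.3% with both and 3.51% with H3K18la only. Neither mark was found at 60% of the endothelial and 41.7% of the neutrophil genes, near the share of all genes. Those lists therefore say little about the gate. None of 10 fibroblast genes and none of 18 developmental regulators had either mark, and all 18 of the latter lay under H3K27me3. Of 14 skeletal muscle genes 12 had neither mark, while Tnni2 (92.0 and 53.7) and Mylpf (40.04 and 51.8) had both. Of 12 lymphocyte genes 9 had neither and Klrb1c had H3K18la only. Both marks were at Ms4a1 (97.8 and 40.7, with an H3K18la peak of 10089 bp) and Cd3d (67.3 and 39.4). Of 10 endothelial genes Cdh5 (90.3 and 71.3), Pecam1 (69.3 and 22.4) and Vwf (43.1 and 4.72) had both and Esam H3K18la only. Of 9 dendritic cell genes Itgax, which macrophages also express, had both and Xcr1 and Batf3 H3K18la only. Of 12 neutrophil genes 5 had H3K18la only, namely Mmp8 (81.4), Cxcr2 (61.9), Ltf (42.9), Mpo (30.8) and Ly6g (28.9). Csf3r and S100a8 had both, and the other 5 neither. At equal bases 0 of the 12 had H3K18la, 2 had H3K27ac only and 10 neither, and with 5000 peaks per list all 12 had neither. What neutrophils contributed to the peaks at these genes was not tested.

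Distal regions were assigned to the nearest protein-coding TSS. Shared distal regions were most numerous at Etv6 (19), a transcriptional repressor of the ETS family, Cmip (18), Rreb1 (17), Tns3 (16) and Med13l (16), a subunit of the Mediator complex. H3K18la-only regions were most numerous at the focal adhesion gene Lpp (41), at the latrophilin gene Adgrl2 (38) and at Klf6, Gm826 and the Polycomb component gene Rybp, with 31 each. Klf6 thus had 10 shared and 31 H3K18la-only distal regions and none with H3K27ac only. H3K27ac-only regions were spread thinly, with 7 at Arid1b, 4 at Pced1b and 3 each at Ccdc93, Rps6kc1 and D17Wsu92e. The 20 macrophage identity genes were nearest to 50 shared, 76 H3K18la-only and 4 H3K27ac-only distal regions. The means per gene were 2.5, 3.8 and 0.2, against 0.328, 0.563 and 0.0582 over all protein-coding genes. The order of the classes was that of all distal regions (34.5%, 59.3% and 6.13%). Runx1 (12, 24 and 2) and Maf (10, 21 and 0), singled out after their values were seen, held a large part of the distal regions of the list. No other member had more than 10 distal regions in all.

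The single regions of highest rank do not all stand for their class. The 3 shared regions of highest mean percentile at promoters lay at chr2:98666237-98667333 over Gm10800, at chrX:169984753-170009406 at the promoter of Gm21887 and at chr14:19415688-19419652 over Gm21738, and held peaks in 24, 21 and 23 of the 24 lists, H3K27me3 lists included. The H3K18la coverage at Gm10800 reached 56125, against 613 at Klf6. The 3 distal ones, at chr13:119595506-119604227 in an intron of Tmem267, chr14:124801351-124802244 and chr9:124255842-124258040, held peaks in 20, 24 and 15 lists. The DNA at the maximum of each of these shared regions was repeated sequence, made of TTAGGG units at chr14:124801351-124802244. The paper filtered out peaks in blacklisted regions, and no blacklist was applied here. The part of repeats in these peaks was not tested. Over the genome 47 regions held peaks in at least 20 lists. All 47 were classed as shared, and they took 5.27% of the H3K18la and 2.69% of the H3K27ac signal. Without them 34.5% of the distal regions carried both marks and 59.4% H3K18la only. Among regions free of H3K27me3 peaks in all lists, chosen after the values above were seen, the leading shared promoter regions covered Klf6 (19275 bp), Ehd1, Neat1, Plec, Ctsb and Zfp36 with Plekhg2. The leading shared distal regions lay at chr8:126843778-126861431 in exons of the non-coding genes A630001O12Rik and Gm31718, near 6430531B16Rik (the Gm16201 sequence above), 47517 bp from Irf2bpl, 90960 bp from Med13l, in an intron of Fmnl2 and 13319 bp from Psap.

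The H3K18la-only regions of highest rank were several kb wide. At promoters they were chr1:144313489-144321001 (7513 bp), chr6:123226028-123231866 at Clec4n (5839 bp) and chr18:9488409-9495373. The chr1 and chr18 regions overlapped only the promoters of Gm7266 and AC158568.2, which are not protein-coding genes. Their nearest protein-coding TSSs were those of Rgs1, 64247 bp away, and of Ccny, 38255 bp away. At distal sites they were chr9:3057957-3077244 (19288 bp, near Gm10715), chr17:48214783-48222029 (7247 bp, 10739 bp from Trem1, an amplifier of inflammation in myeloid cells) and chr16:44988020-44997832 (9813 bp, 22766 bp from Cd200r3). The maxima of the regions near Gm10715 and Trem1 lay on repeated sequence with no motif match. H3K18la coverage reached only 76 in the region near Gm10715. The region near Trem1 held a peak in no other list of the series. The H3K27ac-only regions of highest rank were narrower. At promoters they covered 1785 bp at the Epc1 promoter (chr18:6489787-6491571), 1892 bp at Epc2 (chr2:49450815-49452706) and 2136 bp at Jarid2 (chr13:44729268-44731403). The distal ones were chr4:8647014-8647834, 42572 bp from Chd7, chr18:36286149-36288081 in an intron of Pura and chr10:13008112-13009356 in an exon of Sf3b5.

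The same comparison was made in the other cell types with both lists, given side by side and not tested. List sizes differed and cannot be told apart from cell type. The H3K18la and H3K27ac lists covered 68.9 and 27.4 Mb in PIM, 22.6 and 32.8 Mb in BMDM, 82.4 and 31.95 Mb in ESC-ser, 123.1 and 196.8 Mb in GAS and 76.6 and 54.5 Mb in ADIPO. At distal sites the share with both marks was 34.5% in PIM, 33.7% in BMDM, 30.4% in ESC-ser (embryonic stem cells in serum with LIF), 31.9% in GAS (gastrocnemius muscle) and 49.0% in ADIPO (white adipocytes). H3K18la only took 59.3%, 61.2%, 63.9%, 35.4% and 43.9%, and H3K27ac only 6.13%, 5.10%, 5.70%, 32.7% and 7.09%. At promoters H3K27ac only took 24.4% in PIM, 39.6% in BMDM, 26.1% in ESC-ser, 35.1% in GAS and 13.5% in ADIPO. In all 5 the median percentile of distal H3K18la peaks was higher in shared than in H3K18la-only regions, by 44.1 points in PIM, 41.01 in BMDM, 37.3 in ESC-ser, 27.2 in GAS and 44.3 in ADIPO.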

How the data were processed

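The deposited peak lists were used as the authors made them. Per the submitters' processing notes and the study's methods, reads were trimmed (Trim Galore 0.6.6), aligned to mm10 (Bowtie2 2.4.4) and turned into fragment coverage (bedtools 2.30), replicates were combined, and SEACR 1.3 called the top 1% of regions without a control. The deposited signal columns hold the total and the maximum coverage of a peak as whole numbers that the authors did not scale for depth, so only ranks within a list were compared. Combining replicates removed any replicate error. Peaks on chromosomes 1 to 19 and X were kept, which left out 21 H3K18la and 11 H3K27ac peaks. Regions were merged at 1 bp of overlap, and TSSs came from GENCODE M21 (141767 transcripts). Sequences were read from the mm10 reference. Intervals are at 95%. Python 3.11.15, numpy 2.4.6, pandas 2.3.3, scipy 1.17.1, pysam 0.24.0 and bedtools 2.31.1 were used, and region classes were tested on 5 simulated list pairs. Of 333 listed genes 330 matched by symbol, all but Ero1a, Aldoa and Atp5o. The regions and gene lists were chosen with earlier results of these data known. Genes were named by a rule: per list up to 6 one-mark members by rank, up to 4 shared members of highest H3K18la rank, and members with neither mark where there were 4 or fewer; per class and position the 3 regions of highest rank; and per class the 5 genes nearest to most distal regions. Some genes that the rule names are not reported here.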

Additional observations from a re-analysis of the deposited data

Results flagged for a closer look

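Mitochondrial DNA carried signal in lists that the comparisons leave out. In PIM its peaks took 3.98% of the summed total signal of the H3K18la list, in 1 peak of 16299 bases, and 0.0591% of that of the H3K27ac list, in 3 peaks over 15926 bases. In the other PIM lists the share was 0.443% for H3K4me3 and 0.0612% for H3K27me3. Mitochondrial DNA holds no histones. The difference between the lists was not tested, and the number of samples and the mark cannot be told apart. All ranks above were taken without these peaks.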

How the results depend on the processing

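Of 61 alternative values 32 moved by less than their counting interval and 29 moved by more. Most are shares, which have no sign. The order of the classes did turn with list size, since H3K27ac only became the largest promoter class in both settings below. List size mattered most. With the 5000 peaks of largest total signal per list, the promoter shares were 25.5% for both marks and 19.4% for H3K18la only, the distal shares 23.7% and 72.2%, and 5.25% of the genes had both marks. The width ratio (log2) was 0.23, the rank difference 37.3 points, and 29.7% of the distal H3K18la-only regions lay under a BMDM H3K27ac peak. With the H3K18la list reduced to the bases of the H3K27ac list (5941 peaks kept), the same values were 19.4%, 0.775%, 32.3%, 4.04%, 8.69%, 0.051, 28.0 points and 39.8%. An overlap of 50% of the shorter peak gave 47.7% and 24.8% at promoters, and single peaks without merging 57.4% and 19.4%. Promoters of 1000 bp on each side gave 57.5% and 16.2% at promoters and 32.9% of the genes with both marks. TSSs of protein-coding transcripts only gave 57.9% and 12.4% at promoters, 36.4% and 57.3% at distal sites and 33.1% of the genes. Ranking by maximum signal gave a difference of 46.2 points. Leaving out the regions with peaks in 20 or more lists, an alternative chosen after seeing the data, moved none of its 7 values beyond their intervals. No paired analysis was possible because the lists pool the samples and carry no replicate number, and for the same reason no replicate could be left out. Read depth was not analysed here, so a region without a peak is not shown to lack the mark.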
